A study of Dimocarpus longan with 9 samples.

Results

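Gene expression in young fruit was set against gene expression in seed of longan (Dimocarpus longan), an evergreen fruit tree of the soapberry family. The 2 libraries were chosen by their tissue labels from the 9 of the series, and all 30014 genes of the deposited table were compared between them. Of 1611 longan genes that the study sorted into 64 types of transcription factor, 1529 are in the table, and they were followed as a group of their own. The cultivar of both samples is “sijimi”, written SJM in the study, and the labels name no treatment. Poly(A)+ RNA was sequenced, and each tissue had 1 library, so every difference below lacks a replicate check and is a description of these libraries without a test. The sample labels state neither the age of the fruit nor the stage of the seed, nor how many trees or fruits went into a sample. They also do not state whether the young fruit was taken whole, with the seed inside it. Pericarp, pulp and seed have libraries of their own, so the pair may set a whole organ against a part, possibly at another stage. In such bulk tissue, fewer cells of a type and less RNA per cell cannot be told apart. The other 7 libraries, root, stem, leaf, flower bud, flower, pericarp (the fruit peel) and pulp, are used only to show where a gene was also found.

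Levels are in FPKM, a fragment count scaled by transcript length and by the mapped fragments of the library. The difference between the tissues is log2((seed + 1)/(young fruit + 1)) with both levels in FPKM, so it is positive where seed is higher. The added 1 FPKM makes the difference of weakly expressed genes smaller than their ratio. A gene was counted as higher in a tissue when the difference reached 1 on this log2 scale, which is 2-fold. Low FPKM values come in steps of 1 fragment, and by the commonest ratio of such values over 720 genes the seed library held 1.21 times as many fragments as the young fruit library. The table holds no gene names. Genes are therefore known by their IDs, by the study's transcription factor types and by its annotation of a part of the genes, and no seed or fruit marker gene could be used to check the tissue labels.

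A fleshy fruit grows from the ovary wall and, in longan, from the aril that surrounds the seed, while the seed holds the embryo and its stores. In plants such as Arabidopsis, seed filling runs under a small set of transcription factors of the NF-YB, B3 and bZIP types, and storage and protective proteins come to make up much of the seed's messenger RNA. Families such as WRKY, ERF and Tify are known in Arabidopsis for their part in defence, ethylene and jasmonate responses, and MIKC-type MADS and SBP genes for floral organ identity and the timing of development.

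Of the 30014 genes, 24884 were above 0 FPKM in young fruit or seed and 5130 were listed at 0 in both. More genes were higher in young fruit than in seed. With 1 library a side, 5805 genes (23.3% of the 24884) were at least 2-fold higher in young fruit and 3328 (13.4%) at least 2-fold higher in seed, 9133 genes or 36.7% in all. At 4-fold, 2377 genes (9.55%) were higher in young fruit and 1430 (5.75%) higher in seed, 15.3% together. The balance turned with the size of the difference. At 16-fold the numbers were 436 for young fruit and 394 for seed, and at 64-fold they were 67 for young fruit and 109 for seed. The moderate differences thus lay mostly on the side of young fruit and the extreme ones mostly on the side of seed.

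The median difference over these genes was -0.21, on the side of young fruit. When each library was divided by its median ratio to the geometric mean of the 9 libraries, seed moved up by 0.28 against young fruit on the log2 scale and the median became -0.04. On that scale 4641 genes stood higher in young fruit, against 3999 in seed, and the share of young fruit among the 2-fold differences went from 63.6% to 53.7%. At 16-fold it went from 52.5% to 44.7%, which puts more genes on the side of seed. Differences were also found among the most abundant genes. Of the 1763 genes with a mean of the pair above 100 FPKM, 27.0% lay higher in young fruit, against 20.9% in seed.

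Seed RNA was held by fewer genes. In seed, 620 genes made up 50% of all FPKM, against 1027 genes in young fruit, and the 10 highest genes took 15.5% of the seed total and 6.42% of the young fruit total. Genes at 1 FPKM or more in one tissue and listed at 0 in the other numbered 943 for young fruit and 772 for seed.

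**Figure D1:**
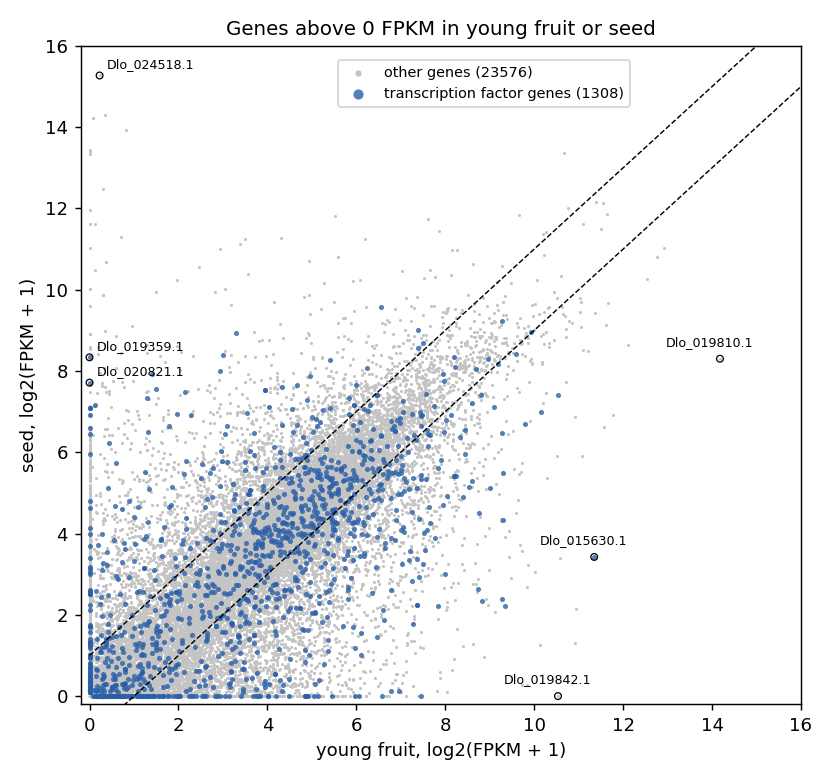
Level of each gene in young fruit (x axis) and seed (y axis), both as log2(FPKM + 1), with 1 library each. Grey points are the 23576 other genes, blue points the 1308 transcription factor genes, and dashed lines mark 2-fold. Along the left edge stand genes of very high FPKM in seed and next to none in young fruit, such as Dlo_024518.1, and at the lower right those high in young fruit, such as Dlo_019810.1.

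The 10 genes furthest on the side of seed were close to silent in young fruit. Dlo_024518.1, the highest gene of the seed library, stood at 39585 FPKM in seed and 0.17 FPKM in young fruit, a difference of 15.05, and at no more than 2.99 FPKM in the other 7 libraries. It alone made up 4.16% of all seed FPKM. Dlo_010361.1 was at 20054 FPKM in seed and 0.27 FPKM in young fruit, with a highest level elsewhere of 1.64 FPKM in pericarp. For Dlo_026500.1 the levels were 19093 FPKM in seed and 0.06 FPKM in young fruit, and for Dlo_019029.1 they were 15609 and 0.77 FPKM. These last genes were also seen in flowers, Dlo_026500.1 at 28.86 FPKM in flower and Dlo_019029.1 at 59.51 FPKM in flower bud. The remaining 6 genes, Dlo_019783.1, Dlo_007374.1, Dlo_019850.1, dlo_036441.1, dlo_035329.1 and Dlo_026633.1, lay between 3149 and 11105 FPKM in seed and were listed at 0 in young fruit except dlo_036441.1, at 0.24 FPKM. Together these 10 genes held 14.6% of all FPKM in seed, 0.000162% in young fruit and at most 0.0327% (in flower) in any of the other 7 libraries. Among the 10, Dlo_019783.1 is annotated through its family, as a Kunitz trypsin inhibitor. The other 9 have no annotation in the sources used here.

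On the side of young fruit the 10 furthest genes were less extreme and were found in other tissues too. Dlo_019842.1 was at 1483 FPKM in young fruit and listed at 0 in seed. Dlo_019847.1 stood at 1938 FPKM in young fruit and 1.46 FPKM in seed, a difference of -9.62, with 2081 FPKM in stem. Dlo_019801.1 was at 909 FPKM against 0.20 FPKM and Dlo_019846.1 at 852 FPKM against 0.20 FPKM. Dlo_019844.1 was at 1953 FPKM against 3.45 FPKM, Dlo_019832.1 at 1113 FPKM against 1.38 FPKM and Dlo_015630.1, a bHLH gene, at 2609.9 FPKM against 9.74 FPKM. The last 3 genes, Dlo_026008.1, Dlo_000002.1 and Dlo_021555.1, lay between 225 and 465 FPKM in young fruit and at or below 0.94 FPKM in seed. All 10 had their highest level outside the pair in stem, leaf or flower, from 34.28 FPKM for Dlo_000002.1 to 2081 FPKM for Dlo_019847.1, and all 10 were at or below 4.17 FPKM in pulp.

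Of the 20 genes just described, 8 carry numbers between 019783 and 019850, a stretch that was noticed after the values were seen. It has 32 genes in the table, among them the 11 listed Kunitz trypsin inhibitor genes. Kunitz inhibitors block serine proteases and are known in plants as storage and defence proteins. Of the 27 genes of the stretch above 0 in either tissue, 13 (48.1%) were higher in young fruit, 12 of them by 4-fold, and 7 (25.9%) higher in seed, 5 of them by 4-fold. Over all genes the 2-fold shares were 23.3% and 13.4%. The 8 genes that drew notice to the stretch and set its end are among those counted, so nothing is concluded from the counts. The stretch took 3.67% of all FPKM in young fruit, 2.50% in seed, 0.00622% in pulp and 0.335% to 0.877% in the other 6 libraries.

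Both tissues expressed listed Kunitz genes at high levels, in part the same ones. Dlo_019810.1 was the highest gene of the young fruit library, at 18537 FPKM against 315 FPKM in seed, a difference of -5.88. Root followed with 7194 FPKM. Dlo_019805.1 was high in both, at 6978 FPKM in young fruit and 1804 FPKM in seed, a difference of -1.95. Dlo_019801.1 and Dlo_019832.1, given above, were close to 0 in seed. Against these, Dlo_019783.1 was listed at 0 in young fruit and at 11105 FPKM in seed, with 162 FPKM in flower as its highest level elsewhere. Dlo_019807.1 was at 0.68 FPKM in young fruit and 38.01 FPKM in seed, a difference of 4.54. Of the 10 members above 0, 5 stood higher in young fruit, against 3 in seed, and the summed level was 27541 FPKM in young fruit and 13265 FPKM in seed. The members are close relatives, and how fragments that match several of them were counted is not given in the sources used here, so the split between single members is uncertain.

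The other genes among the 5 highest of young fruit are not annotated. Dlo_011076.1 was at 7711 FPKM in young fruit and 2104 FPKM in seed, and Dlo_019964.1 at 5969 FPKM and 1231 FPKM. Dlo_028175.1 was at 4435 FPKM in young fruit and 397 FPKM in seed, a difference of -3.48, with 5575 FPKM in pulp. The 5 highest genes of seed were Dlo_024518.1, Dlo_010361.1, Dlo_026500.1, Dlo_019029.1 and Dlo_019783.1, all of them among the 10 with the largest difference.

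Transcription factor genes differed between young fruit and seed more often than genes at large. Of the 1529 genes in the table, 1308 were above 0 in either tissue. Of these, 426 (32.6%) were higher in young fruit, beside 23.3% of all genes, and 210 (16.1%) were higher in seed, beside 13.4%. At 4-fold the shares were 15.9% and 8.26%, beside 9.55% and 5.75%. The 2-fold shares of all genes, 23.3% and 13.4%, also stand beside the counts by type below. The median difference was -0.36 over the transcription factor genes and -0.21 over all genes. With the median-ratio scaling, 363 transcription factor genes stood higher in young fruit, against 240 in seed. Their summed level was 55486 FPKM in young fruit, 5.96% of the total, and 34109 FPKM in seed, 3.59% of the total. Over the same 1308 genes, the seed sum lay close to the 34150.1 FPKM of pulp and the 36240.4 FPKM of root, the other low libraries, while pericarp had 73916 FPKM. Sums for other libraries, here and by type below, leave out genes at 0 in both young fruit and seed. There are 221 such transcription factor genes, so the sums of other libraries are lower bounds.

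**Figure D2:**
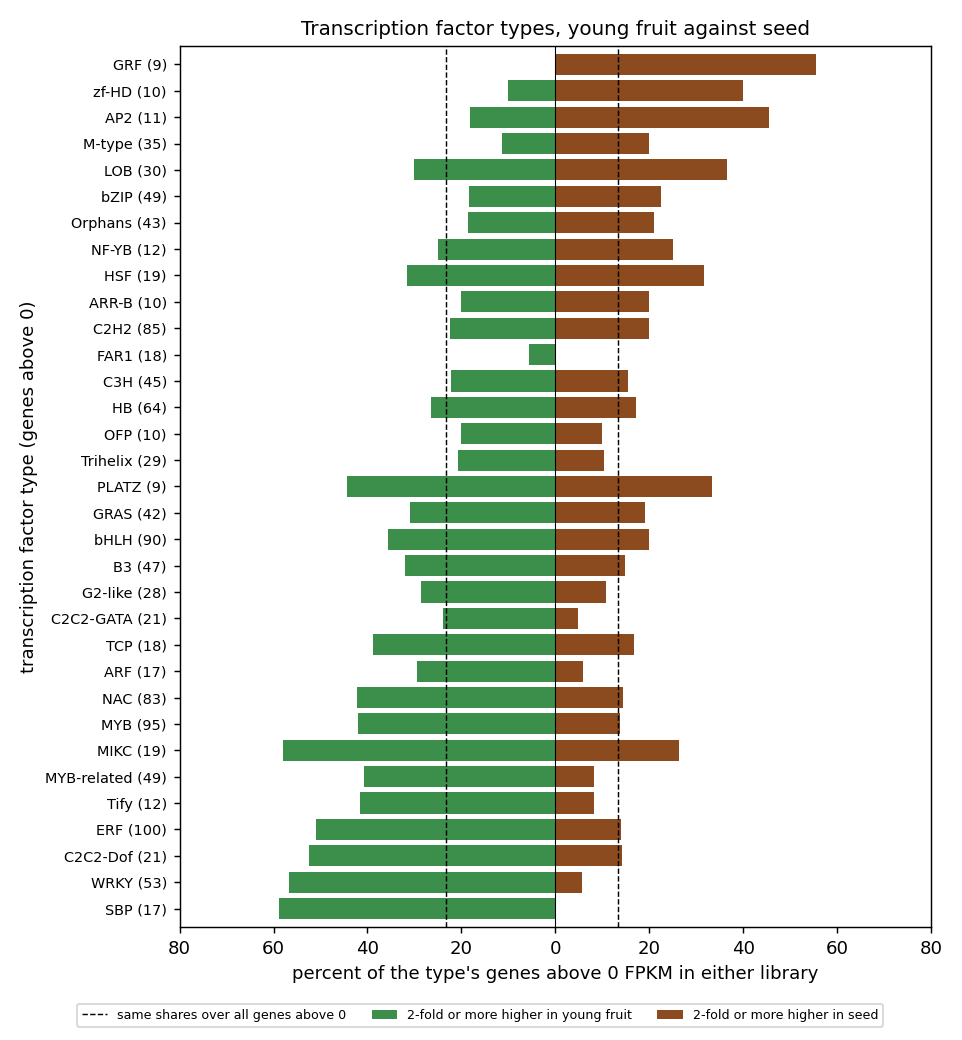
Share of each transcription factor type that was at least 2-fold higher in young fruit (green, to the left) or in seed (brown, to the right), for types with 9 or more genes above 0 FPKM in either library. The number of such genes is given after each name, and dashed lines mark the same shares over all genes, 23.3% and 13.4%. SBP, WRKY, C2C2-Dof, ERF and MIKC reach past 50% on the side of young fruit and GRF past 50% on the side of seed. With the median-ratio scaling C2C2-Dof had 8 of 21 genes on the side of young fruit, ERF 46 of 100 and MIKC 9 of 19.

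WRKY genes, known in Arabidopsis for their part in defence and stress responses, were mostly higher in young fruit. Of 57 members in the table, 53 were above 0 in either tissue, 30 of them (56.6%) lay higher in young fruit, against 3 (5.66%) in seed, beside 23.3% and 13.4% of all genes. The median difference was -1.31, or -1.03 after scaling. At 4-fold, 21 stood higher in young fruit, against 1 in seed. The furthest member, Dlo_030713.1, was at 450 FPKM in young fruit and 4.06 FPKM in seed, a difference of -6.48. It was also high in pericarp (758 FPKM), stem (559 FPKM) and leaf (313 FPKM) and low in pulp (1.95 FPKM). The member furthest on the other side, Dlo_027361.1, was at 0.33 FPKM in young fruit and 4.59 FPKM in seed. Summed over the type, young fruit had 4803 FPKM and seed 842 FPKM. Pulp, at 542 FPKM, was the only library below seed, root had 1627 FPKM, and the remaining 5 lay between 3042 and 6892 FPKM. In the sum over WRKY genes, seed thus stood with pulp and root, and young fruit with stem, leaf, flower bud, flower and pericarp.

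ERF genes, which include the factors of ethylene response, gave the largest number on the side of young fruit. Of 100 members above 0, 51 stood higher in young fruit, against 14 in seed, beside 23.3% and 13.4% of all genes, and the median difference was -1.08, or -0.87 after scaling. Dlo_028757.1 was at 174 FPKM in young fruit and listed at 0 in seed, as it was in root and pulp, with 127 FPKM in stem. Dlo_007316.1 stood at 646 FPKM in young fruit and 3.63 FPKM in seed, a difference of -7.13, and was higher still in pericarp, at 1109 FPKM. Dlo_005618.1 was at 62.03 FPKM in young fruit and listed at 0 in seed, with 152 FPKM in stem. Dlo_000250.1 behaved differently. It was at 94.65 FPKM in young fruit, was listed at 0 in seed, and did not pass 0.51 FPKM in any of the other 7 libraries. There were 2 ERF members among the 12 transcription factor genes furthest on the side of seed. Dlo_000585.2 was at 142 FPKM in seed and 0.09 FPKM in young fruit, a difference of 7.04, and Dlo_015606.1 at 159.95 FPKM in seed and 1.46 FPKM in young fruit, a difference of 6.03. Outside the pair these genes reached 5.99 FPKM in root and 9.67 FPKM in pericarp. On the side of seed the share of ERF genes, 14 of 100, was near the 13.4% of all genes.

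Among bHLH genes, a large family with roles from hormone response to pigment formation, 32 of 90 members above 0 (35.6%) were higher in young fruit, against 18 in seed. There were 5 of them among the 12 transcription factor genes furthest on the side of young fruit. The foremost, Dlo_015630.1, was at 2609.9 FPKM in young fruit and 9.74 FPKM in seed, a difference of -7.93, with 942 FPKM in leaf and 445 FPKM in stem. The bHLH sum, this gene included, was 5923 FPKM in young fruit and 1526 FPKM in seed. Dlo_010846.1 was at 620.1 FPKM in young fruit, 4.24 FPKM in seed and at most 37.71 FPKM elsewhere. Dlo_027394.1 had a like profile, with 424 FPKM in young fruit, 5.18 FPKM in seed and at most 40.72 FPKM elsewhere. For Dlo_030381.1 the levels were 124 FPKM in young fruit and 0.09 FPKM in seed, and for Dlo_008220.2 they were 109 and 0.09 FPKM, the latter with no more than 5.88 FPKM in another library. On the side of seed stood Dlo_018083.1, listed at 0 in young fruit and at 135 FPKM in seed, with at most 5.76 FPKM elsewhere.

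MYB genes, among which are known regulators of flavonoid formation, leaned the same way. Of 95 members above 0, 40 (42.1%) lay higher in young fruit, against 13 (13.7%) in seed, beside 23.3% and 13.4% of all genes. The share in seed was thus near that of all genes. The median difference was -0.68. Dlo_012270.1 was at 67.39 FPKM in young fruit and 1.00 FPKM in seed, a difference of -5.10. Dlo_001771.1 was at 1.53 FPKM in young fruit and 33.38 FPKM in seed, but its highest level, 258 FPKM, was in flower. Of 49 MYB-related members above 0, 20 stood higher in young fruit, against 4 in seed. Dlo_002383.1 of this type was at 65.86 FPKM in young fruit, listed at 0 in seed and pulp and highest outside the pair in leaf. Of 83 NAC genes above 0, a plant family with roles in senescence and organ boundaries, 35 (42.2%) lay higher in young fruit, against 12 (14.5%) in seed. The NAC share in seed was likewise near the 13.4% of all genes. The NAC gene Dlo_003777.1 was at 32.65 FPKM in young fruit and 0.22 FPKM in seed, and Dlo_021973.1 at 8.81 FPKM in young fruit and 486 FPKM in seed. The latter was again highest in flower, at 1264 FPKM.

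SBP genes, regulators of the change from juvenile to adult growth in Arabidopsis, had no member on the side of seed at 2-fold. All 17 members in the table were above 0, and the median difference was -1.43. Of the 17, 10 (58.8%) stood higher in young fruit, against 0 in seed, beside 23.3% and 13.4% of all genes. Dlo_022368.1 was at 109 FPKM in young fruit, 5.07 FPKM in seed and 126 FPKM in leaf. C2C2-Dof genes gave 11 of 21 on the side of young fruit and 3 on the side of seed, but 8 and 6 with the median-ratio scaling. Dlo_033507.1 of that type was at 55.32 FPKM in young fruit and 5.48 FPKM in seed, with 167 FPKM in stem. Among the 12 Tify genes above 0, the family of the jasmonate repressors of Arabidopsis, 5 were higher in young fruit, each by at least 4-fold, and 1 in seed. The furthest, Dlo_029238.1, was at 169 FPKM in young fruit and 6.67 FPKM in seed and was listed at 0 in pulp.

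MIKC-type MADS genes were divided. Of 19 members above 0, 11 (57.9%) lay higher in young fruit, against 5 (26.3%) in seed. Dlo_003537.1 was at 626 FPKM in young fruit and 43.66 FPKM in seed, a difference of -3.81, and at 1241 FPKM in pericarp. Dlo_028609.1 was at 0.21 FPKM in young fruit and 14.93 FPKM in seed. A further member was picked out after its values were seen. Dlo_026285.1 was at 92.48 FPKM in young fruit, 763 FPKM in seed and 473 FPKM in pulp, and did not pass 3.62 FPKM in the other 6 libraries. It was the highest MIKC gene of the seed library, where the summed level of the type was 1216 FPKM against 1921 FPKM in young fruit.

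GRF genes, which promote cell division in growing organs of Arabidopsis, had the highest median difference on the side of seed among types with 9 or more genes above 0. All 9 members were above 0 in either tissue, 5 were higher in seed, each by at least 4-fold, and 0 in young fruit, and the median difference was 2.57. The levels are low in young fruit, from 0.14 to 13.70 FPKM. Dlo_000440.1 was at 7.29 FPKM in young fruit and 85.85 FPKM in seed, and Dlo_005986.1 at 0.35 FPKM and 73.36 FPKM. Dlo_033862.1, Dlo_027533.2 and Dlo_005572.1 lay between 8.80 and 20.22 FPKM in seed and at or below 1.00 FPKM in young fruit. Each of these 5 was higher in seed than in all 8 other libraries. Summed over the type, seed had 224 FPKM, pulp 77.4 FPKM and the remaining 7 libraries between 8.06 and 31.0 FPKM. The 4 members within 2-fold were Dlo_004446.1, Dlo_009201.2, Dlo_028754.1 and Dlo_016151.1, and Dlo_004446.1 had its highest level, 53.59 FPKM, in pulp.

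AP2 genes, known for roles in floral organs and seed size, showed a like lean on few members. Of 11 above 0, 5 were higher in seed and 2 in young fruit. Dlo_014268.1 was listed at 0 in young fruit, was at 86.26 FPKM in seed and did not pass 1.35 FPKM elsewhere. Dlo_021787.1, with 6.95 FPKM in young fruit and 336 FPKM in seed, made up most of the seed sum of 554 FPKM, which compares with 50.3 FPKM in young fruit. On the other side, Dlo_032272.1 was at 11.68 FPKM in young fruit and 0.37 FPKM in seed, and its highest level was 58.52 FPKM in root. Of 10 zf-HD genes above 0, 4 were higher in seed and 1 in young fruit. The zf-HD gene Dlo_005664.1 was listed at 0 in young fruit and at 27.05 FPKM in seed, with at most 1.48 FPKM elsewhere.

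The C2C2-YABBY type, whose members mark the outer side of lateral organs in Arabidopsis, held the transcription factor gene with the largest difference on the side of seed. Dlo_019359.1 was listed at 0 in young fruit, pericarp and pulp and at 322 FPKM in seed, with 174 FPKM in flower and 2.24 to 33.73 FPKM in root, stem, leaf and flower bud. Of the 5 YABBY genes above 0, 3 were higher in seed and 0 in young fruit. The highest in young fruit, Dlo_027352.1, was at 157 FPKM there and 84.52 FPKM in seed.

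The NF-YB, B3, bZIP and LOB types held genes that were found almost only in seed, but each type had members on both sides. In Arabidopsis the NF-YB, B3 and bZIP families include known regulators of embryo and seed maturation, but which longan gene corresponds to which of these is not given in the sources used here. The NF-YB gene Dlo_020821.1 was at 209 FPKM in seed and listed at 0 in all 8 other libraries. Of 12 NF-YB genes above 0, 3 were higher in seed and 3 in young fruit. The others on the side of seed, Dlo_017091.1 and Dlo_017092.1, were likewise listed at 0 outside seed. Their seed levels were low, at 1.66 and 1.52 FPKM. The B3 gene Dlo_012160.1 was at 120 FPKM in seed, listed at 0 in young fruit and at 13.28 FPKM in flower bud. A further B3 gene, Dlo_024008.1, was at 60.65 FPKM in seed and no more than 0.35 FPKM elsewhere. Of 47 B3 genes above 0, 15 stood higher in young fruit, against 7 in seed. The bZIP gene Dlo_003564.1 was at 96.66 FPKM in seed and Dlo_032523.1 at 243 FPKM, against 0 and 1.64 FPKM in young fruit, and both had their highest level elsewhere in pulp, at 9.19 and 8.12 FPKM. For the 49 bZIP genes above 0 the median difference was 0.00, or 0.25 after scaling, with 11 higher in seed and 9 in young fruit. Dlo_010809.1 of the LOB type was at 135 FPKM in seed and listed at 0 in 7 libraries, with 2.70 FPKM in pulp. Of 30 LOB genes above 0, 11 were higher in seed and 9 in young fruit, and the median difference turned from -0.13 to 0.05 with the scaling. A C3H gene, Dlo_020091.2, was at 186 FPKM in seed and 1.80 FPKM in young fruit, with at most 17.93 FPKM elsewhere.

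**Figure D3:**
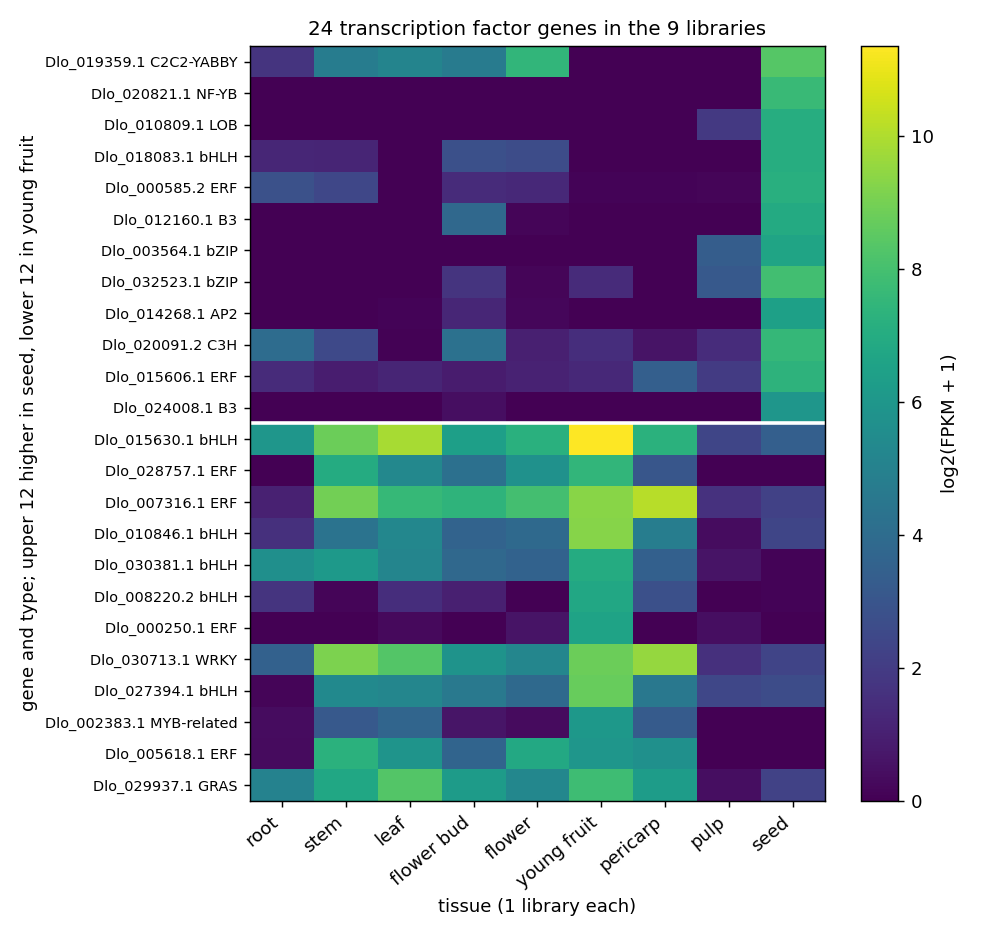
Levels of the 24 transcription factor genes furthest on either side, as log2(FPKM + 1), in each of the 9 libraries (columns, 1 library per tissue). The upper 12 are mostly dark outside the seed column, with Dlo_019359.1 in flower as the main exception, while most of the lower 12 are bright in stem, leaf or pericarp as well as in young fruit, with Dlo_000250.1 and Dlo_008220.2 as exceptions, and dark in pulp and seed.

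Differences were rare among FAR1 genes. Of 18 FAR1 genes above 0, 1 was higher in young fruit, against 0 in seed. Of 85 C2H2 genes above 0, 19 lay higher in young fruit, a share near the 23.3% of all genes, and 17 in seed, a share above the 13.4% of all genes. With the scaling these counts turned to 14 and 17. Of 45 C3H genes, 10 lay higher in young fruit, against 7 in seed, and with the scaling these counts turned to 7 and 8. Among the 95 transcription factor genes at 50 FPKM or more in both tissues, 59 lay within 2-fold. The 3 closest were the ERF genes Dlo_025226.1, at 245 FPKM in young fruit and 244 FPKM in seed, and Dlo_023524.1, at 70.32 and 69.69 FPKM, and the G2-like gene Dlo_020456.1, at 79.70 and 78.25 FPKM.

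Genes on the side of young fruit were often expressed in stem, leaf and pericarp too, and genes on the side of seed less so. Among the 2377 genes 4-fold or more higher in young fruit, the highest of the other 7 libraries was leaf for 23.3%, pericarp for 20.3%, stem for 17.8% and pulp for 5.72%. Over all 24884 genes these shares were 18.7% for leaf, 13.5% for pericarp, 9.60% for stem and 15.0% for pulp. The median level of this set was 22.8 FPKM in young fruit, 11.2 FPKM in stem, 9.93 FPKM in pericarp, 8.89 FPKM in leaf, 1.31 FPKM in seed and 0.67 FPKM in pulp. Pulp was also the lowest library over all genes, with a median of 2.91 FPKM. Of the 2377 genes, 985 (41.4%) were higher in young fruit than in all of the other 7 libraries, 333 of them by at least 2-fold. Over all 24884 genes, young fruit was the highest of the 9 libraries for 4207. The 2377 genes were chosen for a high level in young fruit, which favours such genes. Of the set, 9 were listed at 0 in all 7.

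Of the 1430 genes 4-fold or more higher in seed, 860 (60.1%) were higher in seed than in any of the 7 libraries outside the pair. Over all 24884 genes, seed was the highest of the 9 libraries for 3279, and a set chosen for a high seed level favours such genes. The margin over each of the 7 was at least 2-fold for 639 of the 1430 genes (44.7%), and 105 of the 1430 were listed at 0 in all 7. The set's median was 32.9 FPKM in seed and 1.17 FPKM in young fruit. Elsewhere it was highest in root, at 4.83 FPKM, and in flower bud, at 4.55 FPKM, and lowest in leaf, at 0.775 FPKM. Root was the highest other library for 22.7% of the set, flower bud for 20.8% and leaf for 5.80%, where over all genes these shares were 21.0%, 11.2% and 18.7%. Among the transcription factor genes of this set, 58 of 108 (53.7%) were higher in seed than in each of the 7. Flower bud was the highest of the 7 for 31 of the 108 (28.7%). Over all 1308 transcription factor genes, seed was the highest of the 9 libraries for 142, and flower bud the highest of the 7 for 13.0%.

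**Figure D4:**
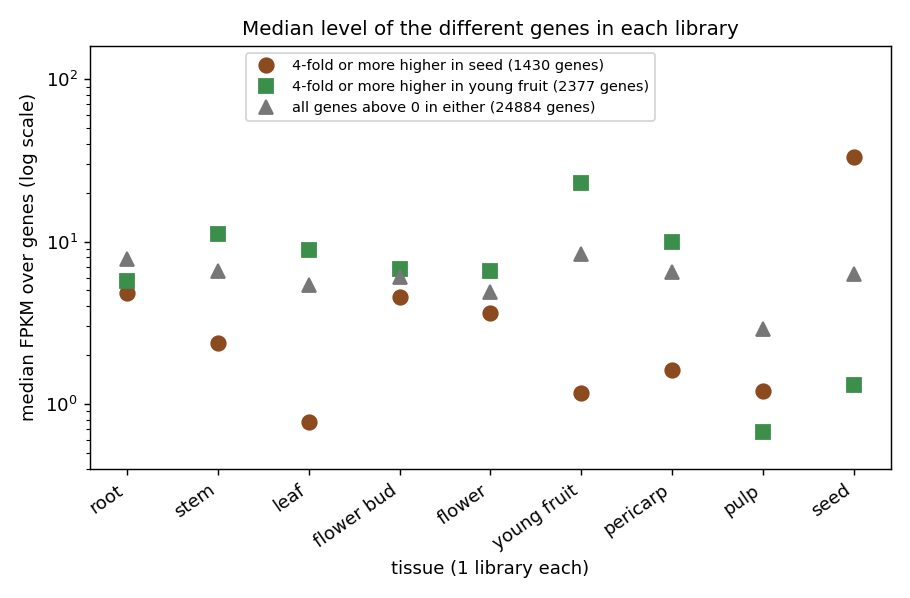
Median FPKM (log axis) in each of the 9 libraries over the 1430 genes 4-fold or more higher in seed (brown circles), the 2377 genes 4-fold or more higher in young fruit (green squares) and all 24884 genes above 0 in either (grey triangles). Young fruit and seed chose the sets. In the other libraries the young fruit set lies above the grey median in stem, leaf, flower bud, flower and pericarp and below it in root and pulp, and the seed set lies below it in all 7.

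Metabolic and structural genes were taken from lists built on the study's annotation of 816 genes that carry sequence variants among cultivars, of which 796 are in the table, and on gene families that share an Arabidopsis member. Both sources hold only part of each pathway or family, so the counts describe the listed members. Over all genes 23.3% lay higher in young fruit, against 13.4% in seed. In lists this short 1 gene moves the share by several percentage points, so nothing is read from a list's count about its pathway. Among the 7 genes of fatty acid and reserve lipid metabolism, 3 (42.9%) were higher in seed, beside 13.4% of all genes, and 1 (14.3%) in young fruit, beside 23.3%. Isocitrate lyase, the glyoxylate cycle enzyme that turns stored fat towards sugar (Dlo_018186.1), was at 0.66 FPKM in young fruit and 36.94 FPKM in seed, and did not pass 1.70 FPKM elsewhere. The biotin carboxyl carrier protein of acetyl-CoA carboxylase, which starts fatty acid synthesis (Dlo_007162.1), was at 8.92 FPKM in young fruit and 126 FPKM in seed, a difference of 3.67, against 4.05 to 32.59 FPKM in the other 7 libraries. A multifunctional enzyme of fatty acid beta-oxidation, Dlo_019947.1, was at 48.84 FPKM in young fruit and 167 FPKM in seed. These are single genes of their pathways. The lipoxygenase Dlo_006066.1, of an oxidising branch of lipid metabolism, went the other way, at 99.29 FPKM in young fruit and 13.95 FPKM in seed. Dlo_006082.1 (long-chain acyl-CoA synthetase), Dlo_016690.1 (glycerol-3-phosphate acyltransferase) and Dlo_014084.1 (a beta-ketoacyl synthase) were within 2-fold.

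Of 13 genes of sugar, starch and trehalose metabolism, 4 (30.8%) were higher in seed, beside 13.4% of all genes, and 1 in young fruit, and with the median-ratio scaling the counts were 6 and 1. Myo-inositol-1-phosphate synthase, the entry to inositol and phytate (Dlo_005273.1), was at 940 FPKM in young fruit and 210 FPKM in seed, a difference of -2.16, with at most 323 FPKM elsewhere. With this gene included the summed level was 1239 FPKM in young fruit and 692 FPKM in seed. The trehalose-phosphate synthase genes Dlo_020588.1 and Dlo_014494.1, whose product is a sugar signal, were at 6.67 and 24.06 FPKM in young fruit and at 40.11 and 91.27 FPKM in seed. Enolase, a step of glycolysis (Dlo_006190.2), was at 8.23 FPKM in young fruit and 33.76 FPKM in seed. The sugar transporter gene Dlo_020112.1 was at 0.55 FPKM in young fruit and 2.81 FPKM in seed, both far below its 2069 FPKM in flower.

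Among 8 phenylpropanoid and flavonoid genes, the pathways of longan polyphenols, 2 (25.0%) were higher in young fruit, 1 (12.5%) in seed and 5 within 2-fold, shares near the 23.3% and 13.4% of all genes. The gene for 3-deoxy-7-phosphoheptulonate synthase, which opens the shikimate pathway to aromatic amino acids (Dlo_025034.1), was at 607 FPKM in young fruit and 19.54 FPKM in seed, a difference of -4.89. Seed was its lowest library, with the other 7 at 45.14 to 556 FPKM. A gene annotated as dihydroflavonol 4-reductase, an enzyme of anthocyanin and tannin formation (Dlo_024800.1), was at 26.93 FPKM in young fruit, 1.73 FPKM in seed and at most 2.02 FPKM elsewhere. A further gene with that annotation, Dlo_025848.1, was at 11.78 and 12.27 FPKM in the pair and at 541 FPKM in root. Trans-cinnamate 4-monooxygenase (Dlo_002085.1) was at 242 FPKM in young fruit and 137 FPKM in seed. The 4-coumarate--CoA ligase gene Dlo_030106.1 was at 20.07 FPKM in young fruit and 134 FPKM in seed, while the ligase gene Dlo_020295.1 was at 7.73 and 6.67 FPKM. Dlo_026760.1 (hydroquinone glucosyltransferase) and Dlo_013337.1 (ferulate-5-hydroxylase) were within 2-fold.

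A laccase family gave a further gene of this kind. The family is listed with laccase LAC15, the TT10 enzyme that oxidises tannins in the Arabidopsis seed coat, and also holds genes of an unrelated annotation, HRD1. Of 9 members above 0, 3 were higher in seed and 3 in young fruit, or 4 and 2 with the median-ratio scaling. Dlo_021759.1 was at 0.64 FPKM in young fruit and 349 FPKM in seed, a difference of 7.74, and at most 26.19 FPKM, in flower, elsewhere. Dlo_012772.1 was at 4.92 FPKM in young fruit and 28.07 FPKM in seed, with 201 FPKM in root. On the side of young fruit, Dlo_019175.2 was at 26.85 FPKM against 5.57 FPKM in seed. Dlo_021756.1, at 1.58 and 3.76 FPKM here, was at 8311 FPKM in flower.

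Photosynthesis and chlorophyll genes were found in both tissues. Of 7 genes, 3 were higher in seed and 1 in young fruit, and their median difference was 0.42. The oxygen-evolving enhancer protein 2 of photosystem II (Dlo_000983.1) was at 60.51 FPKM in young fruit and 123 FPKM in seed, close to the 115 FPKM of leaf and above the 4.15 FPKM of pulp. The light-harvesting protein gene Dlo_012937.1 was at 2.39 FPKM in young fruit and 16.73 FPKM in seed, and uroporphyrinogen decarboxylase (Dlo_016938.1) at 3.64 and 11.06 FPKM. Magnesium chelatase subunit H (Dlo_023618.1), the first enzyme particular to chlorophyll, was at 4.77 FPKM in young fruit and 1.19 FPKM in seed. Dlo_026288.1, Dlo_023154.3 and Dlo_030843.1, for pheophorbidase, protoporphyrinogen oxidase and chlorophyll b reductase, lay within 2-fold.

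**Figure D5:**
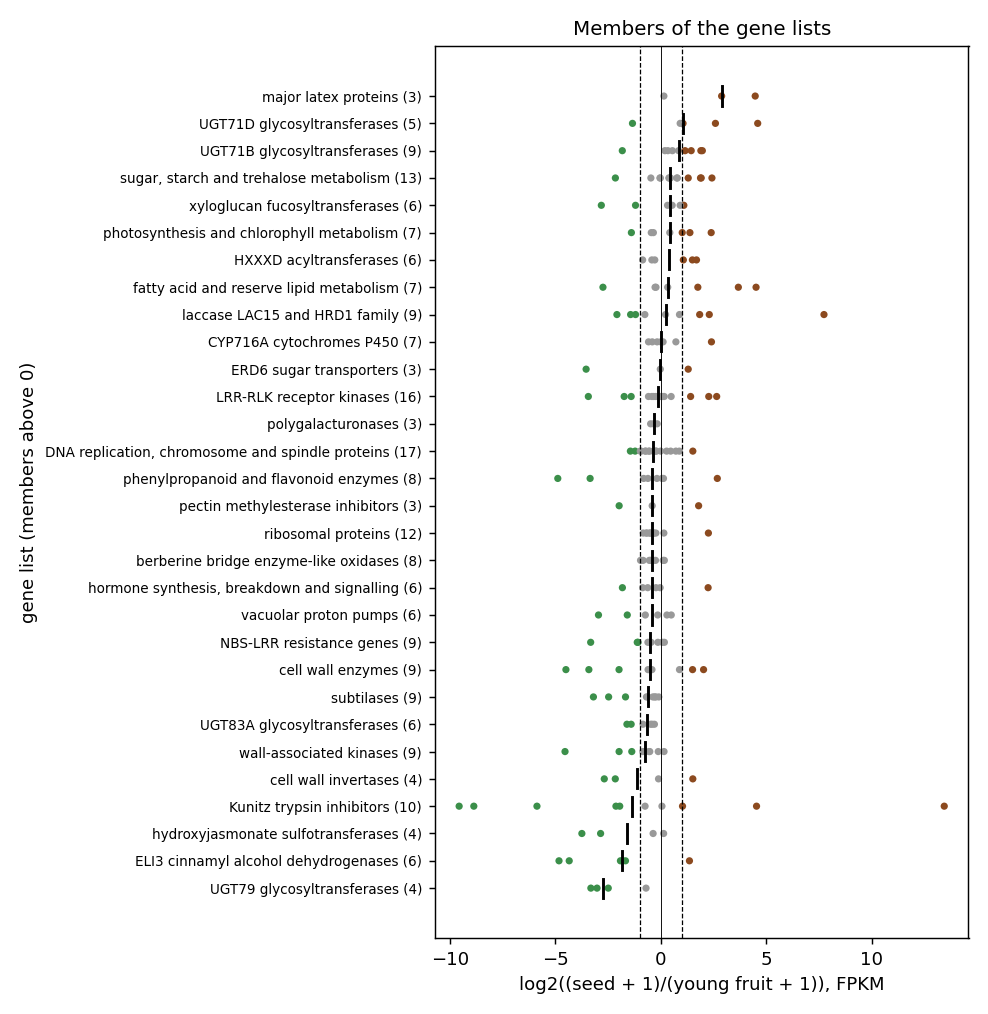
Difference log2((seed + 1)/(young fruit + 1)) of each listed gene above 0 FPKM (points), by gene list, with the number of such genes after each name and the list's median as a black bar. Brown points are at least 2-fold higher in seed, green points at least 2-fold higher in young fruit and grey points in between. Kunitz trypsin inhibitors span from -9.57 to 13.44, whereas ribosomal proteins, with 1 exception, keep within 2-fold.

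Cell wall genes differed in both directions. A cellulose synthase gene, Dlo_033645.1, was at 40.93 FPKM in young fruit and 0.85 FPKM in seed, a difference of -4.50, with at most 15.43 FPKM elsewhere. An expansin, of the proteins that loosen walls during growth (Dlo_032029.1), was at 34.71 FPKM in young fruit and 2.35 FPKM in seed, and a pectinesterase (Dlo_021909.1) at 140 and 34.55 FPKM. On the other side, beta-mannan synthase, which makes a reserve polymer of some seeds (Dlo_013177.1), was at 32.74 FPKM in young fruit and 94.66 FPKM in seed, against 1.07 to 23.89 FPKM elsewhere. A galacturonosyltransferase gene of pectin synthesis, Dlo_016598.1, was at 7.44 and 33.35 FPKM. Of the 9 cell wall genes above 0, 3 (33.3%) stood higher in young fruit and 2 (22.2%) in seed, beside 23.3% and 13.4% of all genes. With the median-ratio scaling the counts were 3 and 3. Of the 9 listed subtilases above 0, a family of proteases of the cell wall, 3 (33.3%) stood higher in young fruit, against 0 in seed. The furthest subtilase was Dlo_018077.1, at 35.90 FPKM in young fruit and 3.02 FPKM in seed. Among 4 cell wall invertase genes above 0, which split sucrose for sink tissues, Dlo_011662.1 and Dlo_011663.1 were higher in young fruit, at 14.35 and 10.45 FPKM against 1.39 and 1.56 FPKM, and Dlo_009656.1 was higher in seed, at 24.96 against 8.08 FPKM.

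Most listed genes of cell division and protein synthesis lay within 2-fold, as did 15751 of the 24884 genes at large. Of 17 genes for DNA replication, chromosome and spindle proteins, 14 lay within 2-fold. A beta-tubulin gene (Dlo_011479.1) was at 478 FPKM in young fruit and 175 FPKM in seed and a histone H2A gene (Dlo_023932.1) at 31.72 and 13.05 FPKM, whereas an alpha-tubulin gene (Dlo_030600.1) was at 58.15 and 168 FPKM. Of 12 ribosomal protein genes, 11 lay within 2-fold, and their median difference was -0.41, or -0.17 after scaling. The exception, Dlo_022272.1, annotated by its L34 domain, was at 10.31 FPKM in young fruit and 52.96 FPKM in seed, above the 13.55 to 27.32 FPKM of the other 7 libraries. Of 6 vacuolar proton pump genes, 2 were higher in young fruit, Dlo_016381.1 at 26.28 against 2.51 FPKM and Dlo_022390.1 at 2.80 against 0.26 FPKM, and 4 lay within 2-fold.

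Hormone and receptor genes gave single cases on either side. A gibberellin receptor GID1 gene (Dlo_032487.1) was at 11.85 FPKM in young fruit and 2.63 FPKM in seed. An auxin response factor gene, Dlo_030332.1, was at 6.59 FPKM in young fruit and 34.88 FPKM in seed, with 69.99 FPKM in root, and was the only 1 of 17 ARF genes on the side of seed, where 5 were on the side of young fruit. Of 16 listed LRR receptor kinases above 0, 3 were higher in each tissue. Dlo_020505.1, annotated as the co-receptor kinase associated with brassinosteroid receptor BRI1, was at 236 FPKM in young fruit and 20.82 FPKM in seed, its lowest library of the 9. Dlo_020303.1 and Dlo_012431.1, annotated as BRI1 itself, were at 6.51 and 0.57 FPKM in young fruit and 46.05 and 6.58 FPKM in seed, and both were also found in root, at 47.24 and 27.12 FPKM. Of 9 NBS-LRR resistance genes, which act in recognition of pathogens, 3 (33.3%) stood higher in young fruit, beside 23.3% of all genes, and 0 in seed, and with the median-ratio scaling 1 of the 3 was left. Dlo_033521.2 was at 21.40 FPKM in young fruit and 1.23 FPKM in seed, a difference of -3.33, while Dlo_026950.1, at 30.20 and 21.61 FPKM, was the highest of the 9 in both tissues.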

How the data were processed

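Poly(A)+ RNA of 9 longan tissues was sequenced on an Illumina platform, with 1 library per tissue. The authors deposited FPKM values per gene, and the submitters' processing notes name TopHat2 2.0.10; the program that made the FPKM values is not given in the sources used here. The total fragment count of a library was not used, so no counting interval is given. Of the per-sample columns, 0 could not be assigned to a tissue.

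Differences were log2((seed + 1)/(young fruit + 1)), with no test, since 1 library per tissue leaves no residual spread. The added value was 1 FPKM and the limit 2-fold. Alternatives were 0.1 and 5 FPKM added, median-ratio scaling over 12039 genes above 1 FPKM in all libraries, a minimum of 5 FPKM and a 4-fold limit. Relative depth was read from the steps of values between 0.2 and 2 FPKM. Named genes were the 10 furthest on each side, the 12 furthest transcription factor genes on each side, the furthest member of each type with at least 10 genes on each side, up to 4 members of each list (all of lists under 10), the 5 highest genes of each tissue and the 3 steadiest transcription factor genes. Members of GRF and YABBY other than Dlo_019359.1 were picked after their values were seen. So were Dlo_021787.1, Dlo_026285.1, Dlo_019807.1, Dlo_013177.1, Dlo_020112.1, Dlo_021756.1, Dlo_017091.1 and Dlo_017092.1. Gene IDs were matched without regard to case. The members and lists were chosen with earlier results of these data known, and the annotation lists are held in part. The calculations were tested on simulated data. Python 3.11.15, numpy 2.4.6, pandas 2.3.3 and matplotlib 3.10.9 were used.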

Additional observations from a re-analysis of the deposited data

How the results depend on the processing

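With an added 5 FPKM in place of 1 FPKM, the number of genes higher in seed was 2106 and that of genes higher in young fruit was 3450. With a limit of 4-fold in place of 2-fold, 1430 genes and 108 transcription factor genes were higher in seed, and 2377 genes and 208 transcription factor genes in young fruit. The other alternatives kept these counts within 1.5 times. Under each of them more genes, and more transcription factor genes, lay on the side of young fruit. Of 62 counts over 31 transcription factor types, 44 moved by over 1.5 times at 4-fold, 20 with an added 5 FPKM, 12 with an added 0.1 FPKM, 10 with the scaling and 7 with a minimum of 5 FPKM. The balance of C2H2 turned to 27 in seed and 25 in young fruit with an added 0.1 FPKM and to 17 and 14 with the scaling, that of C3H to 8 and 7 with the scaling, and that of LOB genes to 12 and 13 with an added 0.1 FPKM. Of 352 named genes and list members, 15 crossed the 2-fold limit with the median-ratio scaling, 42 with an added 0.1 FPKM and 40 with an added 5 FPKM, and 0 changed direction. Leaving out a replicate was not possible with 1 library per tissue. No paired analysis was possible because young fruit and seed had 1 library each. The spread between fruits or trees is therefore unknown, and low levels rest on few fragments.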

Other observations

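Families not described above also differed between young fruit and seed, in part through genes whose highest level was elsewhere. Of the 6 listed ELI3-type cinnamyl alcohol dehydrogenases, enzymes of aromatic alcohols, 5 stood higher in young fruit, against 1 in seed. Dlo_000548.1 was at 71.53 FPKM in young fruit and 1.55 FPKM in seed, a difference of -4.83, and Dlo_000549.1 at 29.11 and 0.48 FPKM. Dlo_000545.1 went the other way, at 5.26 FPKM in young fruit and 15.02 FPKM in seed. Of the 9 wall-associated kinases above 0, 3 (33.3%) stood higher in young fruit, against 0 in seed. Most of the 9 were below 1 FPKM in both tissues. The furthest, Dlo_017857.1, was at 24.91 FPKM in young fruit, 0.11 FPKM in seed and 54.04 FPKM in stem. The hydroxyjasmonate sulfotransferase genes Dlo_008341.1 and Dlo_008344.1 were at 14.16 and 10.96 FPKM in young fruit and 0.13 and 0.65 FPKM in seed, with their highest levels, 114 and 68.38 FPKM, in root.

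Listed glycosyltransferase genes stood on both sides. Over all genes 13.4% were higher in seed and 23.3% in young fruit, and nothing is read from lists this short about a family. Of 5 UGT71D genes, 3 (60%) were higher in seed and 1 (20%) in young fruit. Dlo_029392.1 of this list was at 2.10 FPKM in young fruit and 73.80 FPKM in seed. Of 9 UGT71B genes, 4 (44.4%) were higher in seed and 1 (11.1%) in young fruit. Of 4 UGT79 genes above 0, 3 (75%) stood higher in young fruit, against 0 in seed. Of 6 UGT83A genes above 0, 2 (33.3%) stood higher in young fruit, against 0 in seed. The 3 major latex protein genes were low in both tissues beside pulp. Dlo_011469.1 was at 46.71 FPKM in young fruit, 351 FPKM in seed and 14591 FPKM in pulp, and Dlo_011468.1 at 91.30, 101 and 14810.1 FPKM.

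Across genes within single libraries, the Spearman rho of young fruit was 0.904 with pericarp, 0.889 with stem and 0.814 with seed, and that of seed was highest with pericarp, at 0.824. Genes are not independent replicates, and these values are descriptions only.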
